A study of Mus musculus with 11 samples.

Results

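The genes described here are those by which T cells and natural killer (NK) cells are recognised in bulk RNA: the chains of the T cell receptor, its coreceptors and kinases, cytotoxic proteins, NK receptors, and the receptors and transcription factors of both lineages. Members were taken by gene symbol from a list of 46, of which 44 had a row in both deposited tables, among 14667 genes in all; Lef1 and Sh2d1a were not analysed here. The RNA came from the nucleus accumbens, a reward region of the ventral forebrain, dissected from 11 C57/BL6 mice, with 1 mouse per library. The groups were 3 mice with viral green fluorescent protein (GFP) and cocaine, 4 mice with viral E2F3a (an isoform of a factor that controls cell cycle genes) and saline, and 4 mice with viral GFP and saline. All 11 mice thus carried a virus, and the labels analysed here name neither the virus type, nor the promoter that drove its cargo, nor the cocaine dose, nor age or sex. The values are the authors' comparison statistics, so no level can be given mouse by mouse, and sequencing depth is unknown. Nothing here gives the number of cells, and in bulk RNA fewer T or NK cells and less RNA per cell cannot be told apart.

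A T cell recognises antigen through the alpha and beta chains of its receptor, which signal through the CD3 chains and the zeta chain. The kinase LCK, held at the coreceptors CD4 and CD8, phosphorylates these chains, ZAP70 docks on them, and the adaptor LAT passes the signal on. NK cells and CD8 T cells kill by releasing perforin and granzymes, and NK cells sense their targets through receptors such as NKp46 and NKG2D. The healthy brain parenchyma holds few lymphocytes; most sit in the meninges, the choroid plexus, the blood and the perivascular spaces.

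Promoter sequences were taken from RefSeq (GRCm38.p6), 250 bases before to 50 bases after a gene start, and 27 of the 44 genes had at least 1 window, 35 windows in all. They are shown for the divergent pair Cd3g and Cd3d, which lie next to each other. Windows are also shown for the granzyme genes Gzma and Gzmb, which had some of the widest errors. Capitals mark the word TGTGGT, the core of sites bound by RUNX factors, or its reverse complement. The windows are chr9:44980382-44980681 (minus strand) for Cd3g, chr9:44981536-44981835 (plus strand) for Cd3d, chr13:113100932-113101231 (minus strand) for Gzma and chr14:56262285-56262584 (minus strand) for Gzmb.
Cd3g: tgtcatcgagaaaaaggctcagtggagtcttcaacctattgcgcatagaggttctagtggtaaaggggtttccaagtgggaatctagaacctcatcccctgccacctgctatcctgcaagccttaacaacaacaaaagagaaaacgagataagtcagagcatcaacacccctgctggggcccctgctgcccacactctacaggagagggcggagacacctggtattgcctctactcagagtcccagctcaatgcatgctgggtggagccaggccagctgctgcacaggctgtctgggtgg
Cd3d: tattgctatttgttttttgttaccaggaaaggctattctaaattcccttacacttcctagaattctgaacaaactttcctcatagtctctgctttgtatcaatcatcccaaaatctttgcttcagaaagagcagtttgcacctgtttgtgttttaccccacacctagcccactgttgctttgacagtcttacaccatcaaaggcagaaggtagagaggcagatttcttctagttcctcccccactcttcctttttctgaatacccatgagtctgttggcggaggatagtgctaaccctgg
Gzma: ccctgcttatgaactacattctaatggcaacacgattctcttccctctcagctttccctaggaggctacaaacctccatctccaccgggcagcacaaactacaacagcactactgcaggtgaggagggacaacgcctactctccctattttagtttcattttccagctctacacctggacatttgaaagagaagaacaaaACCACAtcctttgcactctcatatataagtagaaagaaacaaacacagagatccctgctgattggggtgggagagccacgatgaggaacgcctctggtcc
Gzmb: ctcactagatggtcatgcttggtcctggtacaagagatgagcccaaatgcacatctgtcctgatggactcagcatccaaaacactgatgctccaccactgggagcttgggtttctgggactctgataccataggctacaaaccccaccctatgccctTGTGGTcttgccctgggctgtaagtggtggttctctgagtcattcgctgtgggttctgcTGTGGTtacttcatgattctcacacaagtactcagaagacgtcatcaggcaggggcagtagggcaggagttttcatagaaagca

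The RUNX word began 50 bases before the start of Gzma, on the reverse strand of the window, and 93 and 34 bases before the start of Gzmb. It was in 15 of the 35 windows (42.9%), against 5506 of the 32851 RefSeq windows (16.8%), searched on both strands. Windows are not independent: some genes have more than 1, and those of Ncr1 overlap and hold the same words. The 14 genes that held the RUNX word included the killing genes Gzma, Gzmb, Prf1 and Nkg7 and the NK receptors Ncr1, Klrk1 and Klrb1c. The ETS words CCGGAAG and ACCGGAA, which overlap each other, were in 2 of the 35 windows (5.71%), against 10.05% of all windows, and the TATA word TATAAA was in 2 (5.71%), against 13.6%. These are matches of letters, not sites shown to be bound. The median cocaine log2 fold change was -1.15 over the 14 genes with the RUNX word and -1.11 over the 13 genes without it, and the ranges overlapped (-1.48 to -0.50 and -1.76 to 0.18).

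Levels are given per kilobase of exon, as CPM (counts scaled to library depth) per kilobase computed from the deposited mean log2 expression of all libraries, which pools the groups. They ran from 0.736 for Skap1 to 101 for Thy1, with a median of 4.56. The highest after Thy1, a surface glycoprotein of both T cells and neurons, were the chemokine gene Ccl5 at 92.1, Gzmb at 59.0, Coro1a at 45.4 and Gzma at 31.1 CPM per kilobase. Transcripts of the CD3 chains were less abundant, with 4.69 for Cd3d, 3.12 for Cd3g and 2.20 for Cd3e on that scale. In the check of the tissue label, all 10 markers of medium spiny neurons were present, at 27.7 to 593 CPM per kilobase. E2f3, the overexpressed gene, stood at 1.01 (log2, SE 0.20) for E2F3a against GFP in the authors' deposited table, with an unadjusted p of 0.000337 and an adjusted p of 1.00.

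The cocaine comparison asked what the drug changes in mice that carry GFP alone. T and NK cell transcripts were lower in the cocaine mice: 43 of the 44 estimates lay below 0, and 35 (79.5%) were lower at an unadjusted p under 0.05. By that rule 7.51% of all 14667 genes in the authors' deposited table were lower and 1.74% higher, and 0 members were higher. The members were chosen with earlier results of these data known, so these shares are a description and not a test. The median log2 fold change was -1.20 over the members, so the typical transcript stood at 43.4% of its level in GFP saline mice, against a median of -0.02 over all genes. No member passed an adjusted p of 0.05 by the authors' test, and neither did any gene (0 of 14667, 0%). Adjusted p of the 35 ran from 0.533 to 0.539 in the authors' deposited table. The description below therefore rests on unadjusted p values, which count the spread between mice but not the number of genes tested. A gene counted below as lower or higher passed an unadjusted p under 0.05 in that direction. All 44 genes were measured in the same few mice. Here and below, counts of members are therefore not counts of independent observations.

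**Figure D1:**
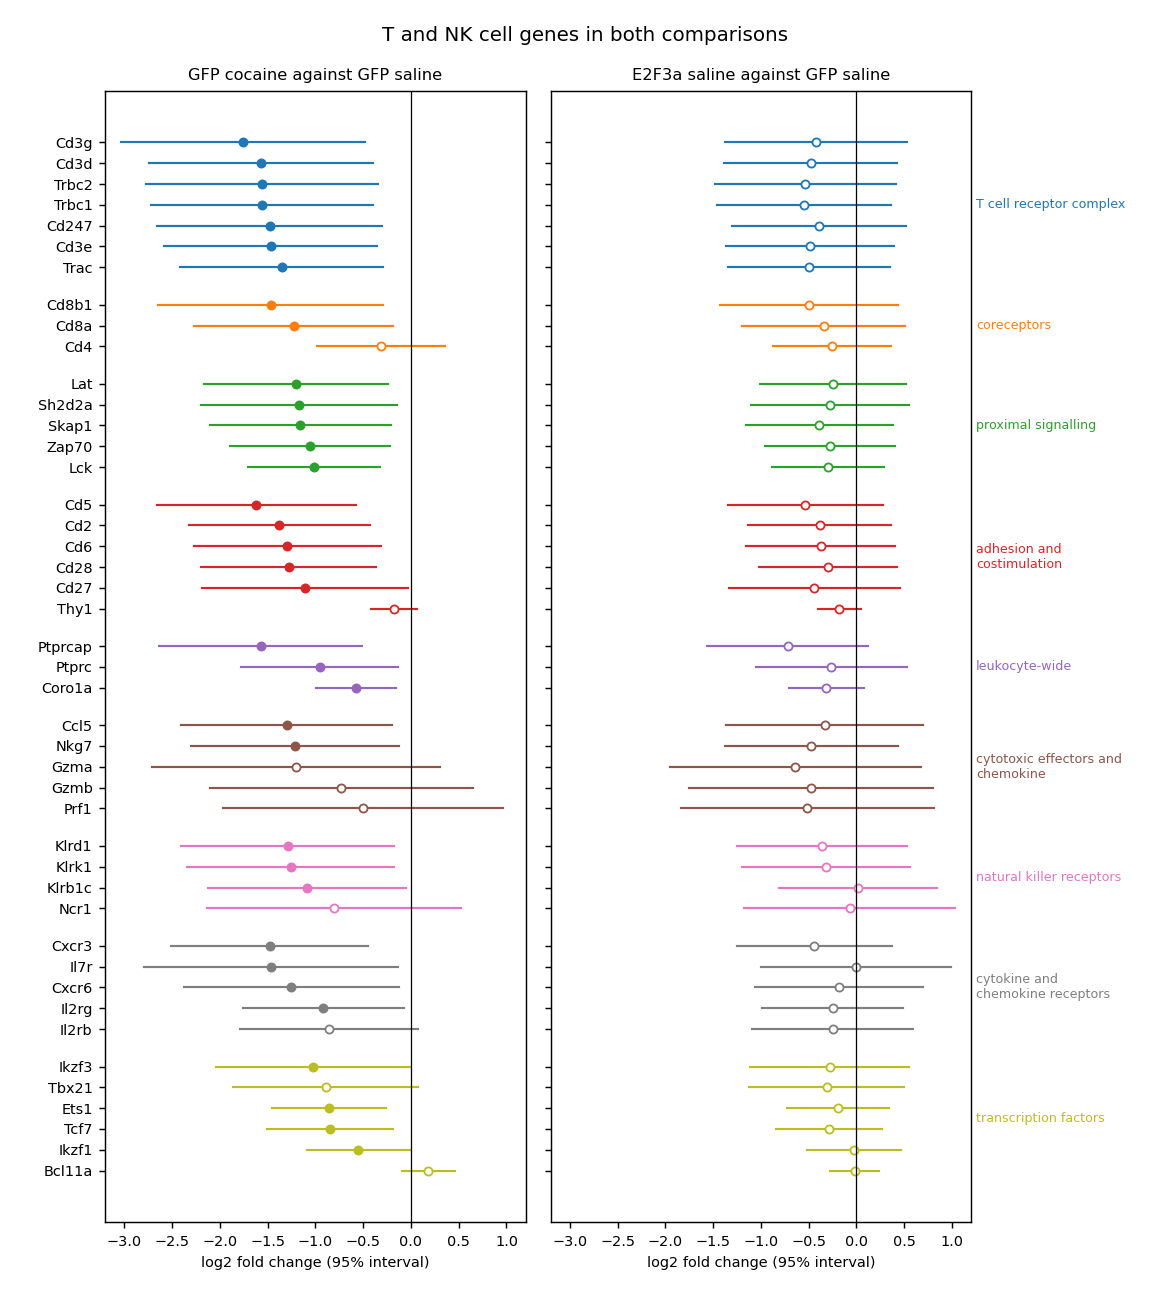
Log2 fold change of each of the 44 genes with its 95% interval (horizontal axes), for GFP cocaine against GFP saline (left) and E2F3a saline against GFP saline (right), grouped by role; filled points have an unadjusted p under 0.05. With cocaine 35 points are filled and 43 lie below 0, and with E2F3a 0 are filled and 43 lie below 0.

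The T cell receptor complex was lower as a whole, with all 7 genes at an unadjusted p under 0.05 and log2 fold changes from -1.76 to -1.35. Cd3g, the gamma chain of CD3 (mm10, chromosome 9, 44969572 to 44980431, minus strand), was listed at -1.76 (SE 0.58, 95% interval -3.03 to -0.48, p = 0.0113) in the authors' deposited table, which is 29.6% of the GFP saline level. Cd3d, the delta chain (chromosome 9, 44981786 to 44987339, plus strand), stood at -1.57 (SE 0.54) and Cd3e, the epsilon chain, at -1.47 (SE 0.51) in the same authors' deposited table. The constant regions of the receptor itself had similar estimates: Trbc1 and Trbc2 stood at -1.56 each and Trac at -1.35 in the authors' deposited table. Trbc1 and Trbc2 are close copies whose reads can be assigned to either, and Cd247, the zeta chain (-1.48 in the authors' deposited table), shares 60.3% of its exonic length with exons of other genes, so these values are less certain. Within this group every 95% interval overlapped every other, but the intervals are so wide that this does not show equal changes.

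Among the coreceptors, both subunits of CD8 were lower at an unadjusted p under 0.05, while Cd4 had an estimate below 0 that did not pass it. Cd8b1 and Cd8a, which mark cytotoxic T cells, were listed at -1.47 (SE 0.54) and -1.23 (SE 0.47) in the authors' deposited table, with p = 0.0192 and 0.0251. Cd4, the coreceptor of helper T cells, which some myeloid cells also carry, stood at -0.31 (SE 0.30, 95% interval -0.98 to 0.36, p = 0.326) in the authors' deposited table. The difference between Cd4 and Cd8a was not tested, since the tables give no covariance between genes.

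Proximal signalling genes were lower in all 5 measured cases, within a narrow range of -1.20 to -1.02. Lck, the kinase that starts receptor signalling (chromosome 4, 129548344 to 129573641, minus strand), was at -1.02 (SE 0.31, 95% interval -1.70 to -0.33, p = 0.0076) in the authors' deposited table. Zap70, the kinase recruited next, was at -1.06 (SE 0.38) and Lat, the adaptor it phosphorylates, at -1.20 (SE 0.44) in the authors' deposited table. Sh2d2a and Skap1, both adaptors, stood at -1.18 and -1.16 in the authors' deposited table.

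Adhesion and costimulatory receptors were lower in 5 of 6 cases. Cd5, a scavenger-type receptor that dampens T cell receptor signals (chromosome 19, 10717116 to 10739002, minus strand), was the member of smallest p in the authors' deposited table, at -1.62 on the log2 scale (SE 0.48, 95% interval -2.66 to -0.57, p = 0.00575). That places it at 32.6% of the GFP saline level, although 99 genes of the table had a smaller p. Cd2, an adhesion receptor, was at -1.38 (SE 0.43, p = 0.0085), Cd6, a relative of Cd5, at -1.29 (SE 0.45) and Cd28, the main costimulatory receptor, at -1.28 (SE 0.42) in the authors' deposited table. Cd27, a costimulatory receptor of the tumour necrosis factor family, stood at -1.11 (SE 0.49, p = 0.0454) in the authors' deposited table. Thy1, which neurons express strongly, was at -0.18 (SE 0.11, p = 0.131) in the authors' deposited table.

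The 3 leukocyte-wide genes were lower, by different amounts. Ptprcap, which associates with CD45, stood at -1.57 (SE 0.48, p = 0.00749) in the authors' deposited table, but all of its exonic length (100%) lies in exons of other annotated genes. Ptprc, which encodes the phosphatase CD45 of all leukocytes, microglia included, was at -0.96 (SE 0.38, p = 0.0266) in the authors' deposited table. Coro1a, an actin-binding protein of leukocytes that brain cells may also express, was at -0.57 (SE 0.19, 95% interval -0.99 to -0.15, p = 0.0117) in the authors' deposited table.

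Cytotoxic genes were lower by estimate but less certain, with 2 of 5 at an unadjusted p under 0.05. Ccl5, a chemokine made by activated T and NK cells, was listed at -1.30 (SE 0.50, p = 0.0249) and Nkg7, a granule protein, at -1.21 (SE 0.50, p = 0.0318) in the authors' deposited table. Gzma, granzyme A, had an estimate of nearly the same size, -1.20, but an SE of 0.69 and p = 0.106 in the authors' deposited table. Gzmb, granzyme B, stood at -0.73 (SE 0.63, p = 0.269) and Prf1, perforin, at -0.50 (SE 0.67, 95% interval -1.97 to 0.97, p = 0.469) in the authors' deposited table. The intervals of all 3 genes held both 0 and the -1.76 of Cd3g.

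NK receptors were lower in 3 of 4 cases. Klrd1 (CD94) and Klrk1 (NKG2D), which CD8 T cells can also carry, were at -1.29 (SE 0.51) and -1.26 (SE 0.50) in the authors' deposited table. Klrb1c, the NK1.1 antigen of C57BL/6 mice, stood at -1.09 (SE 0.47, p = 0.0417) in the authors' deposited table, where 13.9% of its exonic length overlaps another gene. Ncr1 (NKp46), the receptor most restricted to NK cells, was at -0.81 (SE 0.61, p = 0.209) in the authors' deposited table.

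Cytokine and chemokine receptors were lower in 4 of 5 cases. Cxcr3, which guides activated T cells to inflamed tissue, was at -1.48 (SE 0.47, p = 0.0091) and Cxcr6, a receptor of resident T cells, at -1.25 (SE 0.51) in the authors' deposited table. Il7r, needed for survival of naive and memory T cells, stood at -1.47 (SE 0.61, p = 0.0336) in the authors' deposited table. Il2rg, the shared gamma chain, was at -0.92 (SE 0.38), with 30.5% of its exonic length in exons of another gene, and Il2rb at -0.86 (SE 0.43, p = 0.0689), both from the authors' deposited table.

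Transcription factors were lower in 4 of 6 cases and included the 1 member with an estimate above 0. Ets1, which acts in lymphocytes and in endothelium (chromosome 9, 32636221 to 32757820, plus strand), was at -0.86 (SE 0.27, p = 0.00908) in the authors' deposited table, and Tcf7, a factor of naive T cells, at -0.85 (SE 0.30, p = 0.0163) there. Ikzf3 stood at -1.02 (SE 0.46, p = 0.0486) and Ikzf1 at -0.55 (SE 0.25, p = 0.046) in the authors' deposited table. Tbx21 (T-bet), which directs type 1 helper T cells and NK cells, was at -0.89 (SE 0.44, p = 0.0676) in the authors' deposited table. Bcl11a, which neurons express, was at 0.18 (SE 0.12, p = 0.17) in the authors' deposited table.

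Of the 44 genes, 10 belong to a set that microglia, neurons or vessels may also express: Thy1, Bcl11a, Tcf7, Ets1, Ikzf1, Ptprc, Coro1a, Il2rg, Cd4 and Cd27. Their median log2 fold change with cocaine was -0.71 (range -1.11 to 0.18), with 7 of 10 lower at an unadjusted p under 0.05. Over the other 34 genes the median was -1.27 (range -1.76 to -0.50), with 28 lower. The ranges of these sets overlapped.

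The E2F3a comparison asked what the factor changes in mice given saline. Here 0 of the 44 members were lower or higher at an unadjusted p under 0.05, in a table where 0.409% of all genes were lower and 0.545% higher by that rule and 0 passed an adjusted p of 0.05. The estimates were still one-sided, with 43 of 44 below 0 against 47.5% of all genes, and a median of -0.33, or 79.8% of the level in GFP saline mice. The 4 GFP saline mice are the same in both comparisons, so their level enters both sets of estimates. Within either comparison taken alone, a high level in those mice cannot be told apart from a low level in the cocaine or E2F3a mice.

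By role, the receptor complex ran from -0.55 for Trbc1 to -0.39 for Cd247, and the proximal signalling genes from -0.39 for Skap1 to -0.25 for Lat, in the authors' deposited table. Ptprcap had the lowest estimate and the smallest p of the members, -0.72 (SE 0.39, p = 0.0877) in the authors' deposited table. Cd5 was at -0.53 (SE 0.37), Lck at -0.30 (SE 0.27) and Coro1a at -0.32 (SE 0.18) in the authors' deposited table. Cytotoxic genes stood at -0.64 (SE 0.60) for Gzma, -0.52 (SE 0.60) for Prf1 and -0.48 (SE 0.58) for Gzmb in the authors' deposited table. Il7r was at -0.01 (SE 0.45) and Klrb1c at 0.02 (SE 0.38), the only member above 0, in the authors' deposited table.

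The errors allowed changes of some size to go unseen. The 95% half-width of the E2F3a effect had a median of 0.84 on the log2 scale over the members, and for 33 of the 44 the interval reached below -1. For Cd3g it ran from -1.38 to 0.53 and for Lck from -0.89 to 0.29. The most precise member was Thy1, at -0.18 with an interval of -0.40 to 0.04.

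The E2F3a saline mice were also set against the GFP cocaine mice, by the difference of the 2 deposited effects, in which the GFP saline mice cancel. Both the virus cargo and the drug differ between these groups and cannot be told apart. T and NK cell transcripts were higher in the E2F3a saline mice by a median of 0.86 on the log2 scale (1.81-fold), against a median of 0.03 over all genes, and 41 of 44 estimates lay above 0, against 57.7% of all genes. By an approximate test with the cocaine SE, 9 members (20.5%) were higher at an unadjusted p under 0.05 and 0 lower, where 3.51% of all genes were higher and 0.443% lower. None passed the adjusted p of 0.05 (0 of 14667 genes, 0%), and the smallest adjusted p of a member was 0.935. With an SE that takes both deposited effects as independent, an upper limit, the count was 0, and with an SE scaled from the E2F3a effect it was 19, so that the count depends on an error that the tables do not fix.

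The log2 difference of Il7r was 1.46 (approximate 95% interval 0.13 to 2.79) and that of Cd3g 1.34 (0.06 to 2.61). The others of the 9 were Klrb1c at 1.11, Cd5 at 1.08, Cxcr3 at 1.04, Cd2 at 0.99, Cd28 at 0.98, Lck at 0.72 and Ets1 at 0.66 (0.06 to 1.26). By role they were 1 of 7 receptor complex genes, 1 of 5 proximal signalling genes, 3 of 6 adhesion and costimulatory genes, 2 of 5 cytokine and chemokine receptors, 1 of 4 NK receptors and 1 of 6 transcription factors. The cytotoxic genes had differences of 0.97 for Ccl5, 0.74 for Nkg7, 0.56 for Gzma, 0.25 for Gzmb and -0.01 for Prf1. Cd4 (0.06, 95% interval -0.61 to 0.72) and Thy1 (-0.00216, interval -0.24 to 0.23) had estimates near 0.

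**Figure D2:**
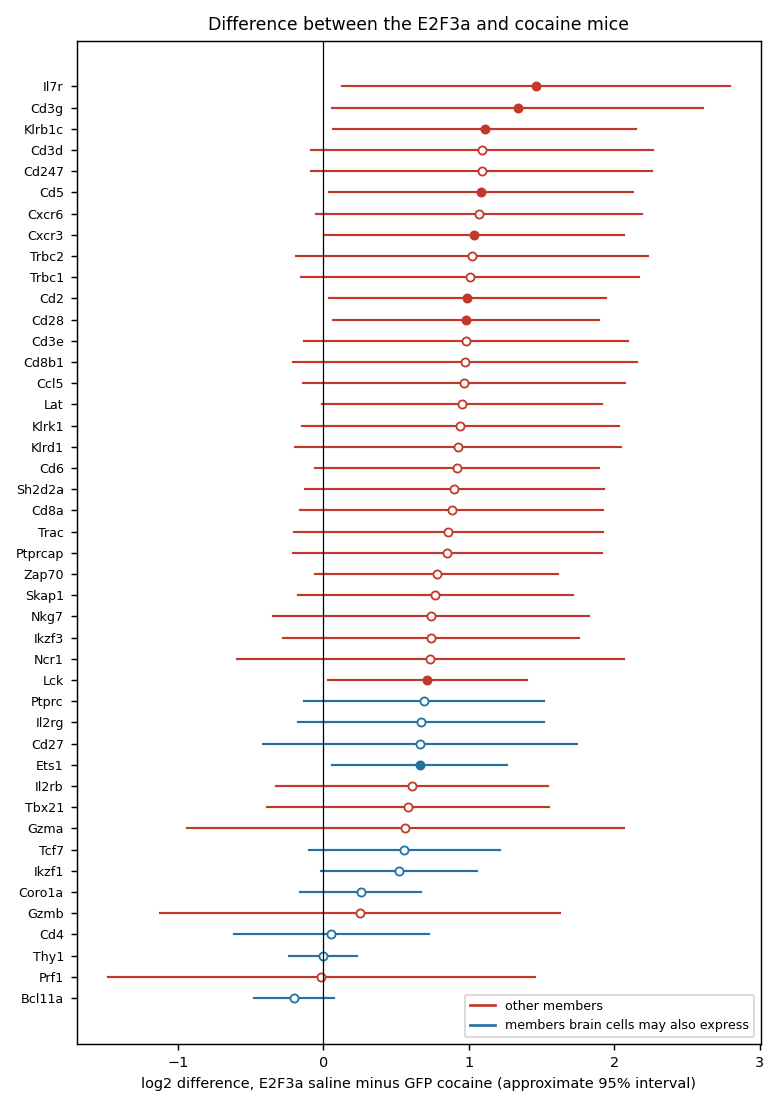
Log2 difference of each of the 44 genes, E2F3a saline minus GFP cocaine (horizontal axis), with an approximate 95% interval; filled points have an unadjusted p under 0.05, and blue marks the 10 members that brain cells may also express. Of 44 points 41 lie above 0 and 9 are filled, from 0.66 for Ets1 to 1.46 for Il7r.

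Most members varied more between mice than other genes of the same mean level. The SE of the cocaine effect had a median of 0.47 over the members and 0.16 over all genes. Wide errors were not particular to the members. The median SE was 0.49 over genes of monocytes, neutrophils and dendritic cells, 0.44 over border macrophage genes and 0.41 over B and plasma cell genes. It was 0.38 over medium spiny neuron genes, 0.21 over microglia genes and 0.14 over endothelial genes. Set beside the 579 to 2783 other genes within 0.5 log2 units of its own mean expression, a member's SE lay at a median percentile of 96.8, and 40 of 44 lay above the 90th percentile. Gzmb, at 0.63 against a median of 0.13 for its neighbours in level, lay at percentile 99.9, as did Gzma (0.69 against 0.13), and Ccl5 (0.50 against 0.13) lay at 99.7. The exceptions were Thy1 at percentile 18.5, Bcl11a at 48.4, Coro1a at 82.8 and Tcf7 at 89.5, all from the set that brain cells may also express.

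**Figure D3:**
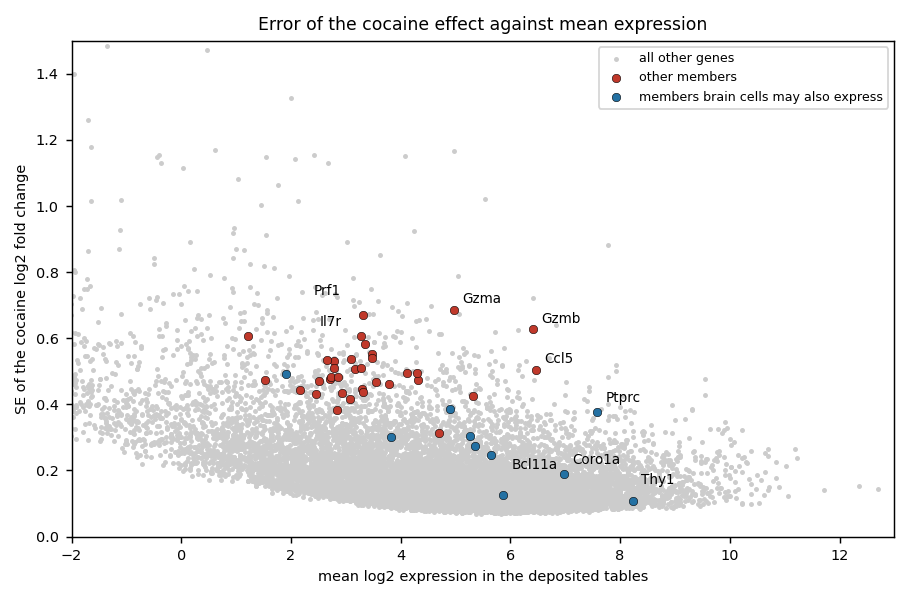
SE of the cocaine log2 fold change (vertical axis) against the mean log2 expression in the deposited tables (horizontal axis), 1 point per gene, with the members in red (34 genes) and blue (10 genes that brain cells may also express); 387 genes lie outside the axes. Most red points lie above the grey bulk at the same mean expression, with Gzma at 0.69 and Prf1 at 0.67 the highest of the members, while Thy1 and Bcl11a lie within it.

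The errors of both comparisons also differed in an unequal way. The ratio of the cocaine SE to the E2F3a SE had a median of 1.23 over the members (range 1.05 to 1.34) and of 1.08 over all genes, where equal weight for each library would give 1.08 for each gene. The libraries were therefore not weighted equally for most members, which is why the SE of the difference above is approximate.

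Members lie on 13 chromosomes, and 6 neighbouring pairs lie within 100 kilobases of each other. The gap was 1.35 kilobases between Cd3g and Cd3d, 11.4 between Cd3d and Cd3e, 6.85 between Trbc1 and Trbc2, 11.5 between Klrd1 and Klrk1, 35.9 between Cd8b1 and Cd8a and 50.3 between Cd5 and Cd6. The 95% intervals of the cocaine effect overlapped within every one of the 6 pairs, but this says nothing particular of neighbours. The lowest upper bound of any member was -0.57, and only Thy1 and Bcl11a had a lower bound above it. Nearly any pair of members would therefore overlap.

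Further genes of T and NK cells, from lists of 81 genes of which 77 were measured, were lower as well. With cocaine 40 of 77 (51.9%) passed an unadjusted p of 0.05 below 0 and none above it, with a median of -0.81. By that rule 7.51% of all genes were lower and 1.74% higher, the shares to set beside each list below. With E2F3a 0 of 77 passed in either direction, with a median of -0.13. Only 0.409% of all genes were lower and 0.545% higher with E2F3a, so a count of 0 says nothing particular of these genes. All 8 genes of the Gimap family, GTPases of lymphocyte survival, were lower with cocaine (median -1.03, range -1.30 to -0.80), Gimap4 standing at -1.30 (SE 0.44) and Gimap6 at -1.06 (SE 0.34) in the authors' deposited table. Of the surface and homing genes 16 of 26 were lower (median of the list -0.90). Among them were Fasl at -1.34 (SE 0.44), Selplg at -0.47 (SE 0.16), Cd7 at -1.79 (SE 0.61) and Cd96 at -1.49 (SE 0.52) in the authors' deposited table. Of the effector genes 3 of 10 were lower: Ctsw, a lysosomal protease, at -1.35, Gzmk at -1.32 and Klrc1 at -1.27 in the authors' deposited table.

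Downstream receptor signalling was lower in 9 of 20 genes (median -0.41). Themis, needed for T cell development, was at -1.26 (SE 0.45) and Ptpn22, a phosphatase that restrains the receptor, at -1.08 (SE 0.39) in the authors' deposited table. Csk and Bcl10, which many cell types use, were at -0.43 and -0.41 in the authors' deposited table. Transcription genes were lower in 4 of 13 cases (median -0.36): Stat4 at -1.16, Runx3, which directs cytotoxic T cells, at -1.10, Irf4 at -0.96 and Satb1 at -0.57 in the authors' deposited table.

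Markers of other cells were also lower in the cocaine comparison, and their part in the T and NK cell result was not tested. Red cell genes were lower in 5 of 5 cases both with cocaine (median -1.54) and with E2F3a (median -0.87), and B and plasma cell genes in 6 of 9 cases with cocaine (median -1.16) and 2 of 9 with E2F3a (median -0.60). Monocyte, neutrophil and dendritic cell genes were lower in 2 of 7 cases with cocaine (median -0.73), border macrophage genes in 1 of 4 (median -0.51), microglia genes in 6 of 15 (median -0.46) and endothelial genes in 5 of 12 (median -0.23). With E2F3a these had medians of -0.14, -0.09, 0.03 and -0.03, with 2 endothelial genes and no other gene of them lower at an unadjusted p under 0.05. By that rule 7.51% of all genes were lower with cocaine and 0.409% with E2F3a. One-sided cocaine estimates were not particular to the members. Those below 0 were 15 of 15 for microglia, 11 of 12 for endothelial and 8 of 9 for B and plasma cell genes. They were 5 of 5 for red cell, 6 of 7 for monocyte, neutrophil and dendritic cell and 3 of 4 for border macrophage genes. Of all genes 53.8% lay below 0, and of medium spiny neuron genes 2 of 10. The difference, E2F3a saline minus GFP cocaine, was not particular to T and NK cell genes. Its median was 0.65 for red cell, 0.94 for B and plasma cell, 0.41 for microglia and 0.13 for endothelial genes. It was 0.50 for monocyte, neutrophil and dendritic cell genes and 0.43 for border macrophage genes. By the approximate test 3 of 5, 4 of 9, 4 of 15, 0 of 12, 1 of 7 and 1 of 4 of these were higher, against 3.51% of all genes. In the same order, 5 of 5, 8 of 9, 15 of 15, 12 of 12, 7 of 7 and 3 of 4 differences lay above 0. Of all genes 57.7% did. Summed over its genes, the mean level was 1391 CPM for the T and NK members, 536 CPM without the 10 that brain cells may also express, 51.3 CPM for the 5 red cell genes and 2392 CPM for the 15 microglia genes. Medium spiny neuron genes had 0 of 10 and mature neuron genes 0 of 5 lower with cocaine, with medians of 0.09 and 0.12. Among the 5 mature neuron genes 1 was higher at an unadjusted p under 0.05, against 1.74% of all genes, and 2 estimates lay below 0. The higher gene was Map2, of a dendritic protein, at 0.41 (SE 0.17, unadjusted p = 0.0397, adjusted p = 0.538) in the authors' deposited table.

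**Figure D4:**
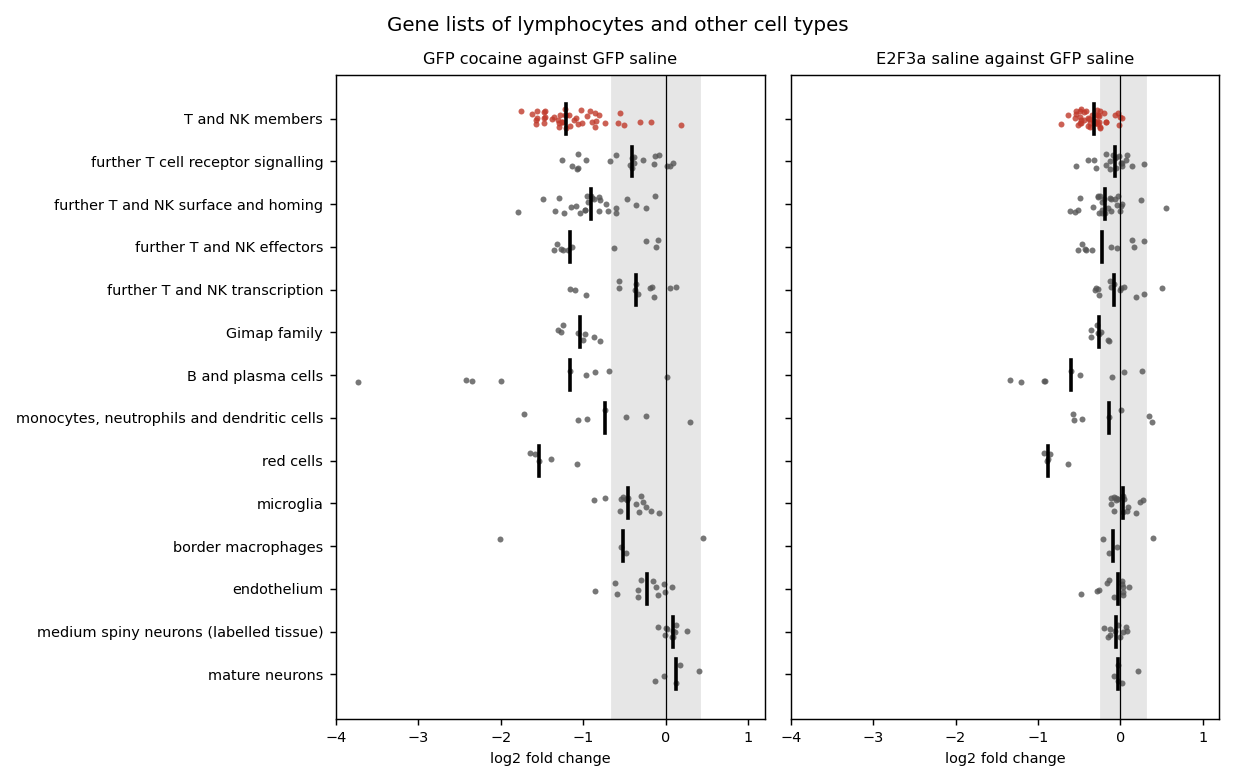
Log2 fold change of each gene (horizontal axes) in the T and NK members and in other lists (rows), for GFP cocaine against GFP saline (left) and E2F3a saline against GFP saline (right); black ticks are list medians and the grey band spans the 5th to 95th percentile of all genes. With cocaine the medians of the members (-1.20), the further surface and homing (-0.90) and effector (-1.16) lists, the Gimap family (-1.03), B and plasma cells (-1.16), monocytes, neutrophils and dendritic cells (-0.73) and red cells (-1.54) lie left of the band, and those of the other lists, the neuron lists included, lie within it.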

How the data were processed

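Poly-A RNA from 1 mouse per library was prepared with the TruSeq v2 kit, which does not mark strand, and read from one end, per the labels' protocols. HTSeq 0.6.0, TopHat2 2.0.9, Bowtie2 2.1.0 and mm10 appear in the submitters' processing notes, without their roles. The sources used here do not give the test program, filter, normalization or annotation release. Both deposited tables list 14667 genes. Per the file headers they give mean log2 expression (the same in both tables), log2 fold changes, a moderated t and log odds (score columns), and an unadjusted and an adjusted p-value, with column names of a limma table. Depth per library is unknown. No columns per library were found, so the authors' statistics were used as given, which the design had named as the fallback; the design's gene test on counts was not run.

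The SE is the log2 fold change over t. A t distribution of 11.29 degrees of freedom returned the deposited p-values and was used for 95% intervals, and a Benjamini-Hochberg adjustment recomputed over all genes matched the deposited one. The difference of both effects used the cocaine SE, exact only if libraries weigh equally, and was adjusted over all genes. Its script was checked on simulated data with equal weights, which does not test that assumption. 2 raised to the mean expression summed to 986624, so it was read as CPM; exon lengths and positions are from GENCODE M21, of the assembly of mm10 (44 of 44 members matched). All present members could be named, and up to 4 genes of each other list by smallest cocaine p; 2 list genes were matched by Ensembl ID. Members, lists and rules were chosen with earlier results of these data known, so no list was tested. Python 3.11.15, numpy 2.4.6, pandas 2.3.3, scipy 1.17.1 and matplotlib 3.10.9 were used. Alternatives changed the threshold, a floor on mean expression, the members kept, the centring and the SE of the difference.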

Additional observations from a re-analysis of the deposited data

How the results depend on the processing

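No paired analysis was possible because the tables hold no values per library, although the groups share replicate numbers; for the same reason leaving out each replicate, other normalizations and count filters were not run. The count of members lower with cocaine, 35 at an unadjusted p under 0.05, was 0 at an adjusted p under 0.05 or 0.1, 6 at an unadjusted p under 0.01 and 20 among the 27 members above the 25th percentile of mean expression. The last alternative drops 17 members by construction. It was 33 with a fold over 1.5 added, 28 without members that brain cells may express, and 31 without the 4 members overlapping another gene, an alternative chosen after seeing the data. For E2F3a the count of 0 could not rise under the alternatives, which are stricter or drop members, so they say nothing of its stability. The 9 members higher in E2F3a saline than in GFP cocaine mice became 0 at an adjusted p under 0.05 or 0.1, 0 at an unadjusted p under 0.01, 4 above the expression floor, 19 with the SE from the E2F3a effect and 0 with the summed SE. Over their 3 alternatives the medians ranged from -1.27 to -1.02 for cocaine, -0.38 to -0.29 for E2F3a and 0.72 to 0.94 for the difference. Precision is limited by 3 to 4 mice per group and a spread between mice of the lymphocyte genes above that of most genes. Some other cell type lists shared this wide spread.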
